A study of Drosophila melanogaster with 8 samples.

Results

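The genes described here are the translation factors and aminoacyl-tRNA synthetases of Drosophila melanogaster. A gene was included when its symbol in the platform annotation began with eIF or eEF, or ended with RS or RS-m. The rule matched 85 probe sets of 74 genes, and each gene was represented by its brightest probe set, judged by the mean of the 8 arrays. The 74 genes are part of 10844 genes with a probe set chosen in the same way. They comprise 37 initiation factors, 5 elongation factors, 18 cytoplasmic synthetases and 14 mitochondrial synthetases. All 74 symbols were found unchanged in the RefSeq gene table, so the symbols and the label agreed. A further 13 genes whose RefSeq symbol fits the rule, among them eEF1alpha1, eEF2, eIF2alpha and eIF2gamma, were not analysed here.

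RNA came from 3 cell lines, each grown to 70% confluence. The RasV12 line, taken at passage 12, is a continuous line from embryos expressing oncogenic Ras, and 3 arrays were hybridised for it. CL8 has 4 arrays and L2 has 1 array, and for both the labels give only the name of the line. Each array had its own T-flask, so the spread between arrays is that between flasks of a single line. The driver of the Ras transgene, the sex and the tissue of origin of the lines are not given in the sources used here, so no cell type markers could be checked.

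Translation of most mRNAs starts when eIF4F, made of the cap-binding eIF4E, the scaffold eIF4G and the helicase eIF4A, brings the mRNA to a small ribosomal subunit that carries eIF3 and the initiator tRNA held by eIF2. The exchange factor eIF2B recharges eIF2 with GTP after each round, and eEF1 then delivers aminoacyl-tRNAs to the ribosome. Aminoacyl-tRNA synthetases attach each amino acid to its tRNA, with separate genes for many of the cytoplasmic and mitochondrial enzymes.

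Values are the authors' GCRMA expression values on the log2 scale, and each difference is between means of log2 values. GCRMA corrects a probe's background from its base content. The 3 lines were not on a common scale. For the 3 RasV12 arrays the 75th percentile of the probe sets was 8.14 ± 0.042 (SD, n = 3), for the 4 CL8 arrays it was 8.97 ± 0.010 (n = 4), and L2 stood at 8.32. The deposited RasV12 values also carry a median of 14 decimals against 9 in both other lines, and a separate processing of the RasV12 arrays cannot be told apart from the line. Every comparison was therefore made as deposited and repeated once all 8 arrays had been quantile normalized, which is called rescaled here. Differences were tested with limma across 13966 probe sets, with Benjamini-Hochberg adjustment, and a gene was called when its adjusted p was under 0.05. The highest of 23 non-fly control probe sets read 3.24 to 3.47 in RasV12, 2.98 to 3.41 in CL8 and 4.04 in L2. Above that level were 69 of the 74 genes in RasV12, 68 in CL8 and 67 in L2, and 5 genes (eIF3d2, eIF3f2, eIF3g2, eIF4E4 and eIF4H2) were within the controls in every line.

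Between RasV12 and CL8, 54 of the 74 genes were called lower in RasV12 and 3 were called higher on the deposited values. Over all genes tested, 41.8% were called lower and 10.9% higher. Among genes above the controls in either line, 54.9% were called lower and 12.7% higher, beside 54 and 3 of 69 here. The median difference over the 68 genes above the controls in both lines was -0.86, beside -0.60 for all such genes. After rescaling, 26 of the 74 genes were called lower and 19 higher, with 31.5% lower and 34.9% higher over all genes, and the median difference came to -0.21 beside -0.03. Of the 69 above the controls in either line, 26 were then called lower and 14 higher, beside 36.9% and 31% of all such genes. A total of 26 genes were lower and 3 higher on both scales, against 27.6% and 10.8% of all genes. A further scaling, chosen after seeing the data, shifted each array to an equal median of the probe sets above the controls. It called 22 genes lower and 22 higher, with 20.8% and 60.9% over all genes, and 21 were lower and 3 higher on all 3 scales, beside 20.3% and 10.8%. In these bulk samples, fewer cells expressing a gene and less RNA per cell cannot be told apart. The counts of lower genes after rescaling were near those of other genes, so the account below turns on single genes and on how members of a complex differed among themselves.

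**Figure D1:**
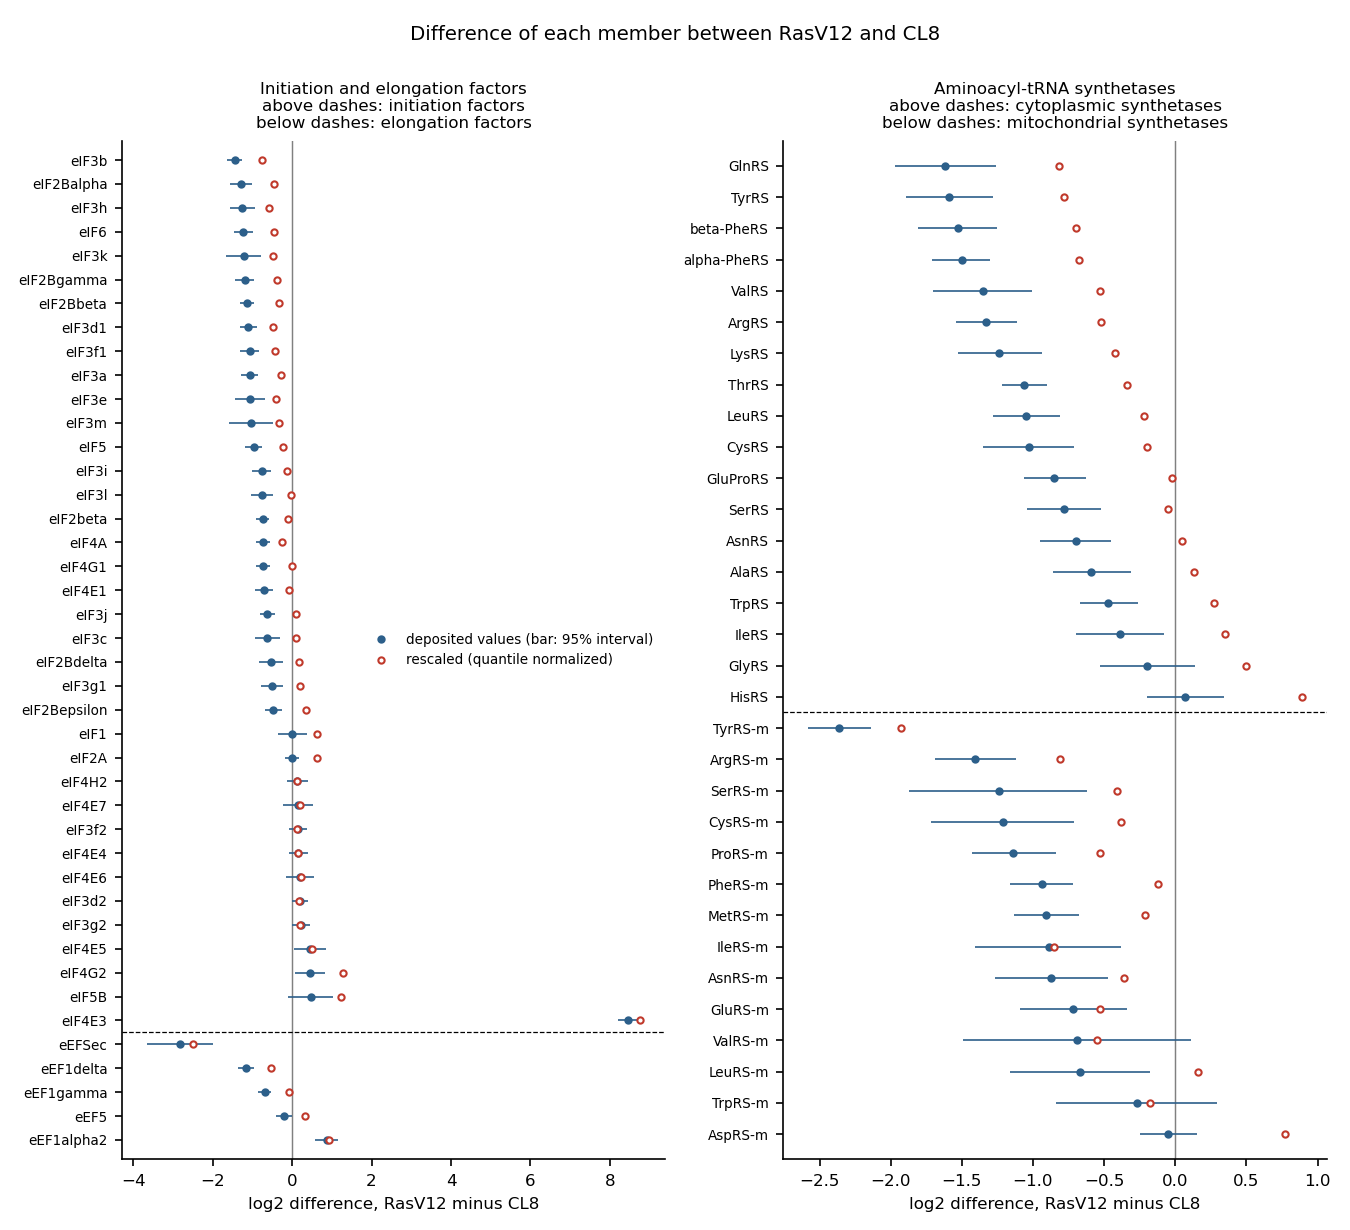
Difference in log2 expression of each of the 74 genes between RasV12 and CL8, with filled points and 95% confidence intervals for the deposited values and open points for the rescaled values; dashed lines separate initiation from elongation factors and cytoplasmic from mitochondrial synthetases. eIF4E3 stands at 8.45, eEFSec at -2.83 and TyrRS-m at -2.36, and rescaling moved most points of well expressed genes to the right.

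The cap-binding eIF4E paralogs differed most among themselves. eIF4E3, a paralog known in Drosophila for its role in male germ cells, read 11.39, 11.48 and 11.43 on the 3 RasV12 arrays. On the CL8 arrays it read 2.73, 3.03, 3.11 and 3.09, and on the L2 array 3.70. The RasV12 arrays stood far above all others, and both other lines were within their controls. Because CL8 and L2 then give only a bound, each array below its highest control was set to that control. On that basis eIF4E3 was at least 296-fold higher in RasV12 than in CL8 and at least 169-fold higher than in L2. The fitted differences were 8.45 (SE 0.108, limma adjusted p = 2.55e-09) and 7.74 (adjusted p = 9.19e-08).

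eIF4E1, the canonical cap-binding protein, was present in every line. It read 13.11, 13.03 and 13.01 in RasV12, 13.94, 13.83, 13.61 and 13.65 in CL8, and 13.45 in L2. All RasV12 arrays were below all CL8 arrays on the deposited scale, with a difference of -0.71 (SE 0.102, limma adjusted p = 0.000488). The rescaled difference was -0.07 and was not called. Only eIF4E3 among the 6 paralogs was called higher in RasV12 on the deposited scale, and after rescaling eIF4E5 and eIF4E4 were called too, at 0.51 and 0.15.

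eIF4E7 and eIF4E5 were highest on the L2 array. For eIF4E7 the L2 array read 5.73, the CL8 arrays 3.51, 4.01, 4.13 and 3.98, and the RasV12 arrays 4.23, 4.01 and 3.94. L2 stood above every other array, by 1.82 over CL8 (limma adjusted p = 0.000624) and 1.37 after rescaling, both called. A second eIF4E7 probe set was dimmer and read 4.13 in L2 and 3.20 to 3.53 in CL8, a difference of 0.76 (adjusted p = 0.00411) that was 0.17 after rescaling and not called. eIF4E5 read 5.64 in L2, 3.81 to 4.41 in CL8 and 4.41 to 4.89 in RasV12, a difference between L2 and CL8 of 1.47 (limma adjusted p = 0.00258) and 0.98 after rescaling. The highest control of the L2 array, at 4.04, was also above those of the CL8 arrays, and its part in these differences was not tested. eIF4E6 read 4.25 in L2, 3.31 ± 0.25 (SD, n = 4) in CL8 and 3.51 ± 0.16 (n = 3) in RasV12, and its L2 difference was not called after rescaling. eIF4E4 was within the controls everywhere, between 2.70 and 3.46.

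**Figure D2:**
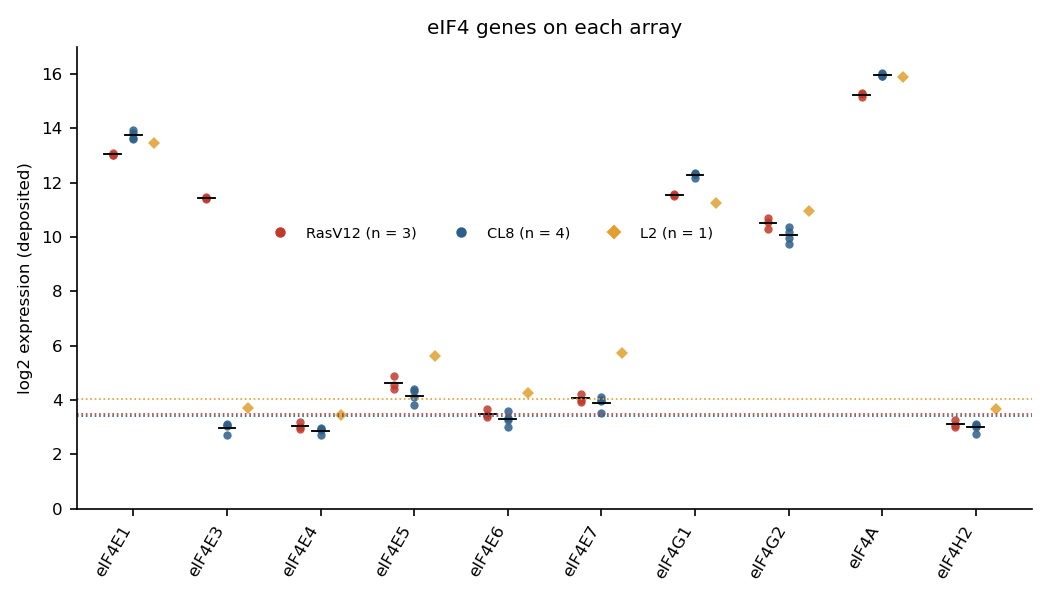
Deposited log2 expression of the eIF4 genes on each array, with RasV12 in red, CL8 in blue and L2 as yellow diamonds; black bars are line means and dotted lines the highest control reading of each line. eIF4E3 sits near 11.4 on the RasV12 arrays and at the controls elsewhere, while eIF4E5 and eIF4E7 stand above the controls most clearly on the L2 array, at 5.64 and 5.73.

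The scaffold genes of eIF4F went separate ways. eIF4G1, the general scaffold, read 11.60, 11.55 and 11.52 in RasV12, 12.31, 12.32, 12.16 and 12.36 in CL8, and 11.25 in L2. L2 was below all other arrays, and its difference from CL8 was -1.04 (limma adjusted p = 0.000327) on the deposited scale and -0.45 after rescaling, called on both. The RasV12 difference from CL8 was -0.73 (adjusted p = 9.23e-05) and then 0.00 after rescaling. eIF4G2, a related scaffold known in Drosophila for its role in male meiosis, read 10.57, 10.69 and 10.31 in RasV12, 10.19, 10.36, 9.76 and 9.97 in CL8, and 10.96 in L2. L2 was above all other arrays, by 0.89 over CL8 (limma adjusted p = 0.014) and 1.54 after rescaling. The RasV12 and CL8 arrays of eIF4G2 overlapped, and the difference of 0.45 (adjusted p = 0.045), 1.27 after rescaling, lost its call on the deposited scale without RasV12 array 1 or 2 or CL8 array 1, 3 or 4, when it was 0.43, 0.37, 0.49, 0.35 and 0.42.

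eIF4A, the helicase, could be followed along its transcript, since the array carries separate control probe sets for its 3′ end, middle and 5′ end. The gene's own probe set gave a RasV12 minus CL8 difference of -0.73 (limma adjusted p = 7.14e-05), -0.25 after rescaling. The 3′ control read 15.13, 15.04 and 14.97 in RasV12 and 15.64, 15.81, 15.78 and 15.96 in CL8, with no overlap and a difference of -0.75. The middle control differed by -0.44. The 5′ control read 13.89, 13.97 and 13.87 in RasV12 and 14.09, 13.71, 13.96 and 13.97 in CL8, so the lines overlapped and differed by -0.03. The 3′ signal exceeded the 5′ signal by 1.86 ± 0.24 in CL8 (SD, n = 4), by 1.13 ± 0.091 in RasV12 (n = 3) and by 1.65 on the L2 array. For the GAPDH controls that excess was 1.34 ± 0.059 and 1.37 ± 0.19 in RasV12 and CL8. For the ACTIN controls it was 0.75 ± 0.12 in RasV12 and 0.91 ± 0.50 in CL8, where array 2 stood at 1.62. The size of the eIF4A difference thus varied with the position measured, and the part of transcript ends in the other genes' differences was not tested.

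All 5 eIF2B subunits were called lower than in CL8 on the deposited scale in RasV12 and in L2, where 54.9% and 37.6% of all genes above the controls in either line were called lower. After rescaling, alpha, beta and gamma were called lower in RasV12, whereas alpha, delta and epsilon were called lower in L2. eIF2Bepsilon, the catalytic subunit, read 8.95 in L2, 10.50, 10.76, 10.67 and 10.60 in CL8, and 10.07, 10.18 and 10.24 in RasV12. The L2 array lay more than a log2 unit under every other array, with a difference from CL8 of -1.69 (limma adjusted p = 6.36e-05), -1.0 after rescaling. The RasV12 difference of this subunit turned from -0.47 to 0.35 after rescaling and was called in both directions, so it has no settled direction.

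eIF2Bdelta, a regulatory subunit, read 6.20 in L2, 7.81, 7.88, 7.43 and 7.70 in CL8, and 7.03, 7.16 and 7.33 in RasV12. L2 was again the lowest array, by -1.51 from CL8 (limma adjusted p = 0.000571) and -1.34 after rescaling. A second probe set of this gene was dim, at 3.82 to 4.57 on all arrays, and highest in L2. The deposited RasV12 minus L2 difference was 0.97 for the brighter probe set and -0.59 for the dim one, called in opposite directions. After rescaling these were 1.52 and 0.13, and the dim one was not called. eIF2Balpha averaged 9.37 ± 0.13 in CL8 (SD, n = 4) and 8.08 ± 0.19 in RasV12 (n = 3), and L2 read 8.08. Its RasV12 and L2 levels differed by less than the spread of the RasV12 arrays, and both were below all CL8 arrays. eIF2Bbeta and eIF2Bgamma fell by 1.13 and 1.19 in RasV12 (limma adjusted p = 6.31e-06 and 2.7e-05). Their rescaled RasV12 differences were -0.32 and -0.37, while in L2 the rescaled differences of 0.10 and 0.00 were not called.

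eIF2beta, the measured subunit of eIF2 itself, averaged 14.03 ± 0.023 in CL8 (SD, n = 4) and 13.29 ± 0.031 in RasV12 (n = 3), and L2 read 13.51. It was called lower in RasV12 and in L2 on both scales, with rescaled differences of -0.11 and -0.30. After the shift of array medians the differences were 0.07 and 0.04 and neither was called, so eIF2beta has no settled direction. eIF2A, an alternative initiator tRNA carrier, read between 13.73 and 13.88 on all 8 arrays, and no deposited difference between lines was called. After rescaling, RasV12 was called higher than CL8 by 0.62 and higher than L2 by 0.42. eIF1, which guards start codon choice, read 14.70, 14.70 and 14.63 in RasV12, 14.32 to 15.03 in CL8 and 13.89 in L2, the lowest array. RasV12 exceeded L2 by 0.79 (limma adjusted p = 0.0249), 1.19 after rescaling, and the deposited call was lost without RasV12 array 2, at 0.78.

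The 16 genes of the eIF3 scaffold on the small subunit separated into 13 well expressed genes and 3 paralogs (eIF3d2, eIF3f2 and eIF3g2) that read no more than 3.28 on any array. All 13 expressed subunits were called lower in RasV12 than in CL8 on the deposited scale, and in each the lines' arrays did not overlap, a pattern found in the lower direction in 41.9% of all genes. Of all genes above the controls in either line, 54.9% were called lower. The differences of the 13 subunits ran from -1.45 to -0.51, with a median of -1.06. After rescaling, 4 of the 13, eIF3b, eIF3h, eIF3d1 and eIF3f1, were still called lower and none of the 13 higher, beside 36.9% lower and 31% higher among all such genes, so the share lower was no larger than the background.

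eIF3b, a core subunit that holds the complex together, read 12.09, 11.96 and 12.03 in RasV12, 13.41, 13.38, 13.49 and 13.63 in CL8, and 12.57 in L2. L2 lay between the lines, with RasV12 the lowest. The RasV12 difference from CL8 was -1.45 (SE 0.087, limma adjusted p = 3.82e-06) and -0.76 after rescaling. eIF3h read 12.36, 12.31 and 12.37 in RasV12 and 13.26, 13.55, 13.72 and 13.83 in CL8, a difference of -1.25 (adjusted p = 0.000101), -0.59 after rescaling. Its second, dimmer probe set differed by -0.30 and was not called. eIF3d1, the cap-contacting subunit, read 12.97, 12.80 and 13.06 in RasV12, 13.99 to 14.13 in CL8 and 12.85 in L2. RasV12 and L2 differed by 0.10 on the deposited scale, not called, and by 0.38 after rescaling, called narrowly (limma adjusted p = 0.0498). Both were below every CL8 array, with differences of -1.11 and -1.20 on the deposited scale (limma adjusted p = 2.03e-05 and 0.000334) and of -0.47 and -0.85 after rescaling.

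The CL8 flasks themselves disagreed on several eIF3 subunits. eIF3m read 12.25 and 11.96 on CL8 arrays 1 and 2 but 12.95 and 12.89 on arrays 3 and 4, against 11.45 to 11.50 in RasV12. eIF3k read 11.83, 12.26, 12.58 and 12.54 in CL8 and 11.08 ± 0.19 (SD, n = 3) in RasV12, a deposited difference of -1.22 (limma adjusted p = 0.00082) that was not called after rescaling. eIF3e was 12.47 ± 0.10 in RasV12 (n = 3), 13.54 ± 0.30 in CL8 (n = 4) and 13.47 in L2, so for this subunit L2 lay within the CL8 range. Across the 67 genes above the controls in every line, the mean of CL8 arrays 3 and 4 minus that of arrays 1 and 2 had a median of 0.03 and ran from -0.74 to 0.81.

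**Figure D3:**
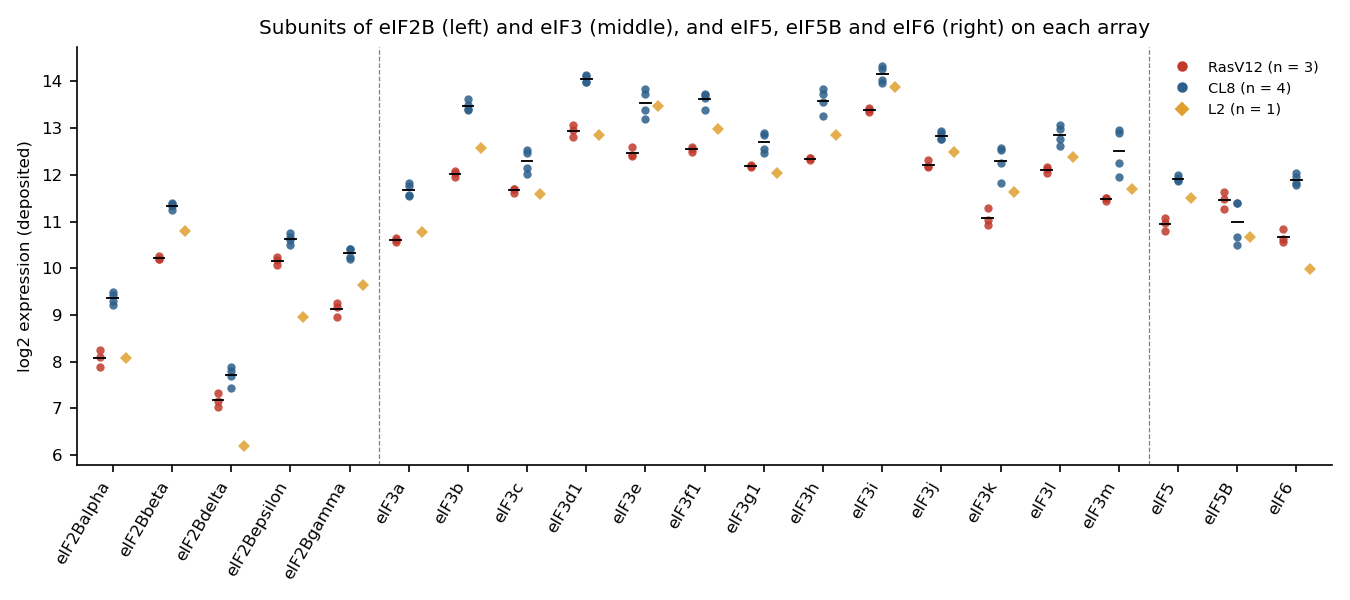
Deposited log2 expression of the eIF2B subunits, the 13 expressed eIF3 subunits, and eIF5, eIF5B and eIF6 on each array, with RasV12 in red, CL8 in blue, L2 as yellow diamonds and line means as black bars. The L2 array is the lowest for eIF2Bdelta (6.20), eIF2Bepsilon (8.95) and eIF6 (9.98), and RasV12 lies below CL8 in all eIF3 subunits shown.

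eIF6, which keeps free large subunits from joining too early, was lowest in L2. It read 10.62, 10.83 and 10.56 in RasV12, 11.78, 11.82, 12.03 and 11.96 in CL8, and 9.98 in L2, with no overlap between lines. The deposited differences from CL8 were -1.23 in RasV12 (limma adjusted p = 1.96e-05) and -1.92 in L2 (adjusted p = 5.99e-05), and the rescaled ones -0.46 and -1.30. RasV12 exceeded L2 by 0.69 (adjusted p = 0.00743), 0.84 after rescaling. eIF5, which triggers GTP hydrolysis on eIF2, averaged 11.92 ± 0.054 in CL8 (SD, n = 4) and 10.95 ± 0.14 in RasV12 (n = 3), with L2 at 11.50, and its RasV12 difference was -0.97 (adjusted p = 3.75e-05), -0.24 after rescaling.

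eIF5B, the subunit-joining GTPase, gave results that depended on its probe set. Its brightest probe set read 11.48, 11.63 and 11.26 in RasV12 and 10.50, 11.40, 11.39 and 10.67 in CL8, with overlap and an uncalled difference of 0.47. A second probe set differed by 0.67 (limma adjusted p = 0.00418) and the third by 0.05, uncalled. After rescaling, these became 1.24, 1.49 and 0.88, all called.

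Among elongation factors, eEFSec, which delivers selenocysteinyl-tRNA, showed the lowest RasV12 difference of all 74 genes. It read 4.05, 3.8 and 3.8 in RasV12, 6.49, 7.67, 6.77 and 5.92 in CL8, and 5.27 in L2. RasV12 was below every other array, though close to its controls, and the CL8 flasks spread over more than a log2 unit. The RasV12 minus CL8 difference was -2.83 (SE 0.358, limma adjusted p = 0.000236), and it was -2.49 after rescaling. L2 differed from CL8 by -1.44 (adjusted p = 0.0439), a call lost when any of RasV12 arrays 1, 2 or 3 or CL8 array 1 or 3 was left out, with differences between -1.51 and -1.42.

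eEF1delta, part of the exchange complex of eEF1, read 12.65, 12.65 and 12.68 in RasV12, 13.80, 13.96, 13.86 and 13.68 in CL8, and 13.42 in L2. RasV12 was lowest, by -1.17 from CL8 (limma adjusted p = 1.08e-05), -0.53 after rescaling, and by -0.76 from L2 (adjusted p = 0.00231). eEF1gamma of the same complex fell by 0.69 on the deposited scale (adjusted p = 6.97e-05), while its rescaled difference of -0.07 was not called. eEF1alpha2, a paralog of the tRNA-delivering factor, was dim, with 3.63 ± 0.17 in CL8 (SD, n = 4), 4.5 ± 0.18 in RasV12 (n = 3) and 4.73 on the L2 array. Its RasV12 excess over CL8 of 0.87 (adjusted p = 0.000491) was 0.94 after rescaling. eEF5, the fly counterpart of the hypusinated eIF5A, read 16.11 in L2 and 15.35 to 15.74 on the other 7 arrays, so L2 was highest, by 0.52 over CL8 on both scales (limma adjusted p = 0.0102).

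All 18 cytoplasmic synthetases were above the controls on every line. On the deposited scale 16 were called lower in RasV12 than in CL8 and none higher, with a median difference of -1.04, where 54.9% of all genes above the controls in either line were called lower. After rescaling, 8 were called lower and 4 higher, with a median of -0.21, beside 36.9% lower and 31% higher among all such genes. The 8 were GlnRS, TyrRS, both subunits of the phenylalanyl enzyme, ValRS, ArgRS, LysRS and ThrRS. The 4 higher after rescaling were HisRS, GlyRS, IleRS and TrpRS. On the deposited scale HisRS and GlyRS were not called. IleRS and TrpRS turned from -0.39 and -0.47 to 0.35 and 0.27 and were called in both directions, so they have no settled direction.

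GlnRS read 9.54, 9.43 and 9.61 in RasV12, 10.96, 10.86, 11.45 and 11.31 in CL8, and 10.34 in L2. RasV12 was below L2 and L2 below CL8, without overlap. The RasV12 minus CL8 difference was -1.62 (SE 0.152, limma adjusted p = 4.18e-05), -0.82 after rescaling. TyrRS read 9.93, 10.07 and 9.92 in RasV12, 11.39, 11.34, 11.84 and 11.66 in CL8, and 10.78 in L2, in the same order, with a RasV12 difference of -1.59 (adjusted p = 2.13e-05), -0.78 after rescaling. A second TyrRS probe set was dim, at 3.40 to 3.97 on all arrays. On the deposited scale it was called higher in L2 than in CL8 while the bright probe set was called lower. The dim probe set was within the controls in L2. After rescaling, the L2 minus CL8 differences were -0.1 for the dim and -0.16 for the bright probe set, and neither was called.

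The phenylalanyl enzyme is built of alpha and beta subunits, and the lines ranked them differently. alpha-PheRS read 9.45, 9.60 and 9.38 in RasV12, 11.07, 10.95, 10.91 and 11.00 in CL8, and 10.37 in L2. For beta-PheRS the values were 8.86, 8.68 and 8.95 in RasV12, 10.52, 10.41, 10.10 and 10.39 in CL8, and 8.50 in L2. In RasV12 both subunits were lower than in CL8 by nearly the same amount, -1.50 and -1.53 (limma adjusted p = 3.1e-06 and 1.55e-05). In L2 the alpha subunit differed from CL8 by -0.62 and the beta subunit by -1.86 (adjusted p = 0.00565 and 0.000155), and the rescaled L2 differences were 0.04, not called, and -1.19, called. The difference between the subunits within L2 was not tested.

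ThrRS showed the tightest replicates among the named synthetases. It read 11.68, 11.68 and 11.71 in RasV12, 12.73, 12.73, 12.82 and 12.73 in CL8, and 11.38 in L2, the lowest array. Its difference from CL8 was -1.06 in RasV12 (limma adjusted p = 5.96e-06) and -1.37 in L2 (adjusted p = 5.08e-05), and -0.34 and -0.83 after rescaling. For ArgRS, L2 at 11.24 lay just below the CL8 arrays, at 11.25 to 11.56. LeuRS was alike, with L2 at 10.68 and the CL8 arrays at 10.72 to 11.04. The ArgRS difference between L2 and CL8 was -0.17 as deposited, 0.45 after rescaling and 0.39 after the shift of array medians. Its RasV12 arrays, at 10.12, 10.13 and 10.02, differed from L2 by -1.15 (limma adjusted p = 0.000501), and by -0.97 after rescaling. ValRS averaged 9.64 ± 0.31 in RasV12 (SD, n = 3), the widest RasV12 spread of the 67 genes above the controls in every line, beside 11.00 ± 0.13 in CL8 (n = 4) and 10.62 on the L2 array.

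**Figure D4:**
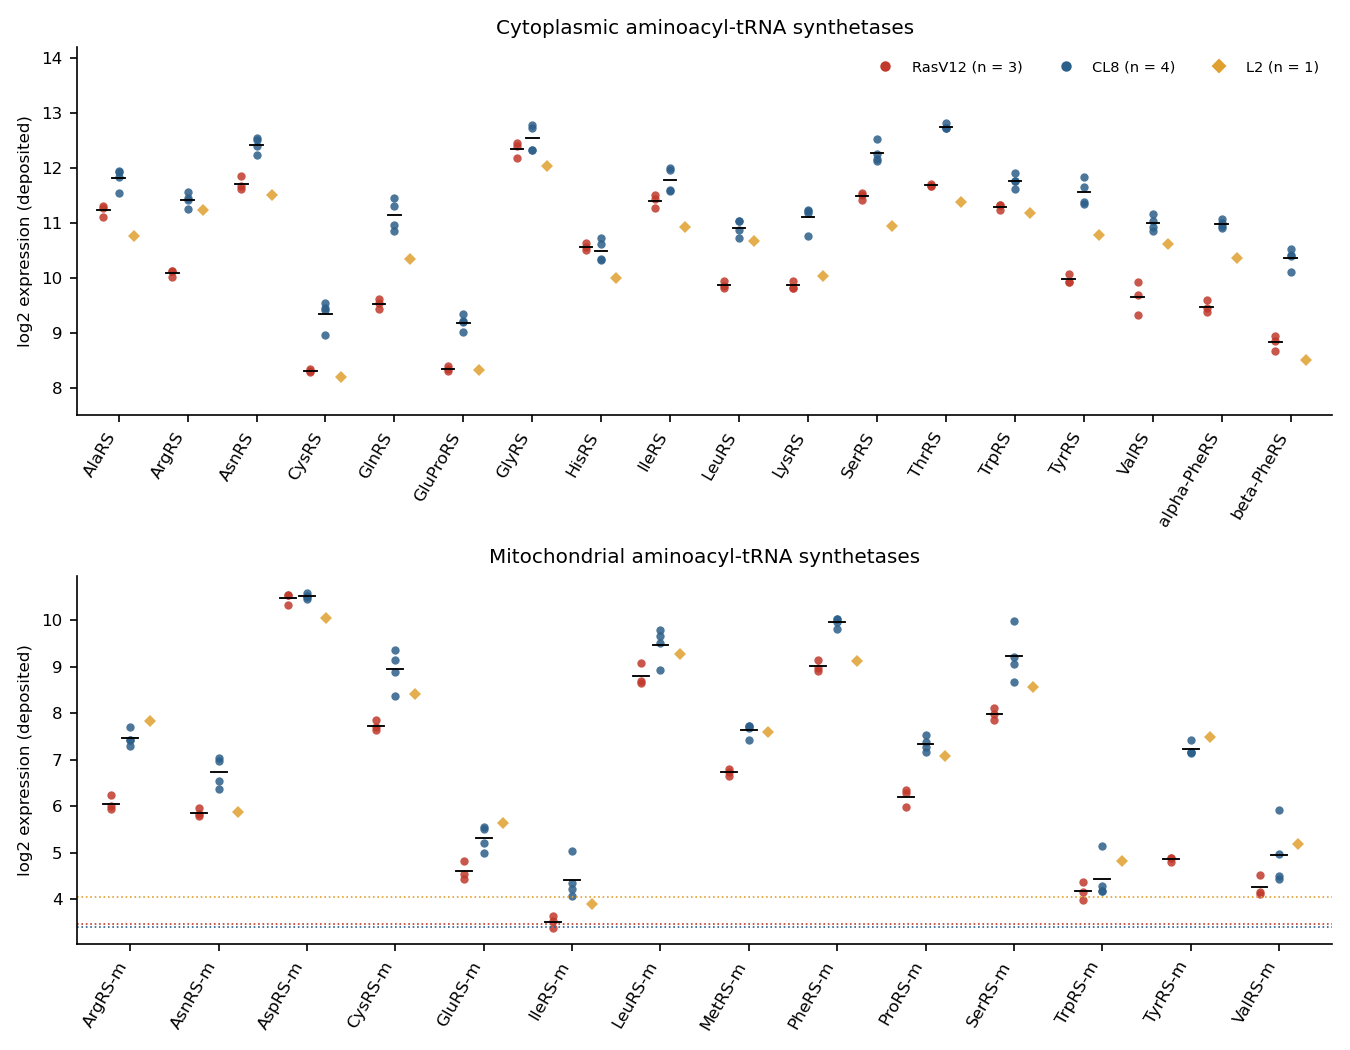
Deposited log2 expression of the cytoplasmic (upper panel) and mitochondrial (lower panel) aminoacyl-tRNA synthetases on each array, with RasV12 in red, CL8 in blue, L2 as yellow diamonds, line means as black bars and, in the lower panel, the highest control of each line as dotted lines. The L2 array lies below every CL8 array in all 18 cytoplasmic genes, while among mitochondrial genes TyrRS-m is at 4.80 to 4.89 in RasV12 and above 7 elsewhere.

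Of the 14 mitochondrial synthetases, 11 were called lower in RasV12 than in CL8 on the deposited scale and none higher, with a median difference of -0.90, beside the same 54.9%. After rescaling, 5 were called lower (TyrRS-m, ArgRS-m, IleRS-m, ProRS-m and GluRS-m) and AspRS-m was called higher, with a median of -0.40. The share lower is close to the 36.9% of all genes above the controls in either line. TyrRS-m read 4.89, 4.80 and 4.89 in RasV12, 7.43, 7.17, 7.16 and 7.14 in CL8, and 7.49 in L2. The RasV12 arrays were far below all others, while L2 was just above the highest CL8 array. The difference from CL8 was -2.36 (SE 0.094, limma adjusted p = 5.63e-07), a 5.14-fold lower level, and -1.93 after rescaling. The difference from L2 was -2.62 (adjusted p = 9.82e-06), and -2.67 after rescaling.

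ArgRS-m showed the same order at a smaller size. It read 6.23, 6.01 and 5.93 in RasV12, 7.43, 7.43, 7.71 and 7.29 in CL8, and 7.83 in L2. RasV12 was again below every other array, by -1.41 from CL8 (SE 0.123, limma adjusted p = 2.67e-05) and -1.78 from L2 (adjusted p = 0.000238), or -0.81 and -1.69 after rescaling. SerRS-m and CysRS-m had deposited differences of -1.24 and -1.21 (adjusted p = 0.00497 and 0.00181), with CL8 arrays spread from 8.68 to 9.97 and from 8.37 to 9.36, and neither was called after rescaling. AspRS-m read 10.32 to 10.55 in RasV12 and 10.46 to 10.59 in CL8 and overlapped, with a deposited difference of -0.05 and a rescaled one of 0.77.

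For 9 amino acids the cytoplasmic and the mitochondrial enzyme were paired by matching symbols. Phenylalanine, glutamate and proline, whose cytoplasmic genes are alpha-PheRS, beta-PheRS and GluProRS, were also measured but are not among these pairs. The deposited mitochondrial RasV12 minus CL8 difference was the more negative in 6 of the 9 amino acids, and for tyrosine it was -2.36 beside -1.59. After rescaling it was the more negative for all of them except leucine, at 0.16 beside -0.22. Outside these pairs, the deposited differences were -0.94 for PheRS-m, beside -1.5 for alpha-PheRS and -1.53 for beta-PheRS. They were -0.72 for GluRS-m and -1.14 for ProRS-m, beside -0.85 for GluProRS. IleRS-m was within the controls in L2, which leaves 8 pairs for that line. On the deposited scale the L2 minus CL8 difference was higher for the mitochondrial enzyme in 8 of these 8 pairs. Examples were 0.37 beside -0.17 for arginine, 0.26 beside -0.78 for tyrosine and 0.39 beside -0.58 for tryptophan. After rescaling, the mitochondrial difference was instead the lower for tryptophan (-0.24 beside 0.01), asparagine (-0.91 beside -0.37) and valine (-0.31 beside 0.27). It stayed the higher for the other amino acids of these pairs. Outside the 8 pairs, the deposited L2 minus CL8 difference of PheRS-m was -0.84, below alpha-PheRS at -0.62 and above beta-PheRS at -1.86. GluRS-m at 0.33 and ProRS-m at -0.27 were above GluProRS at -0.87. The 8 pairs share the same arrays, so the count describes 1 L2 array and not a replicated contrast.

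Between L2 and CL8, 38 of the 74 genes were called lower in L2 and 12 higher on the deposited scale, where 26.7% of all genes were called lower and 37.3% higher. Of the 12, 6 were above the controls in either line, where 27.4% of all such genes were called higher. After rescaling, 14 were called lower and 10 higher, with 18.6% and 20.1% over all genes, and 13 and 6 were called on both scales, with 13.2% and 15.4% over all genes. The shift of array medians called 13 lower and 21 higher, beside 14.1% and 60.7%. L2 lay below every CL8 array in 50 of the 67 genes above the controls in every line, and below every array of both other lines in 18. Of all 6789 genes above the controls in every line, 51.1% lay below every CL8 array and 18.1% below every array, and the L2 array's 75th percentile was itself under that of CL8. By role, 18 of 18 cytoplasmic synthetases but 5 of 13 mitochondrial ones lay below every CL8 array, and the difference between these roles was not tested. The cytoplasmic synthetases called lower in L2 were 14 on the deposited scale and 3 after rescaling (beta-PheRS, ThrRS and SerRS), with median differences of -0.83 and -0.18. Among all genes above the controls in either line, 37.6% were called lower on the deposited scale, and 23.2% lower and 22.9% higher after rescaling. For the mitochondrial enzymes the deposited calls were 3 lower (among them AsnRS-m at -0.85 and PheRS-m at -0.84, limma adjusted p = 0.0225 and 0.00207), and the medians of those above the controls were -0.19 and 0.14. After rescaling, ArgRS-m, TyrRS-m and MetRS-m were called higher in L2. For MetRS-m that difference was 0.50, and its second, dimmer probe set went the other way. The dimmer probe set differed between L2 and CL8 by -1.40 as deposited and -1.85 after rescaling. It read 3.97 in L2, within the controls, so MetRS-m has no settled direction in L2.

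Between RasV12 and L2, 28 of the 74 genes were called lower in RasV12 and 9 higher on the deposited scale, with 44.6% lower and 10% higher over all genes. The rescaled calls were 13 lower and 18 higher, where all genes gave 26.6% and 22.3%. Called on both scales were 13 lower and 9 higher, beside 26.5% and 9.96%. The shift of array medians called 16 lower and 13 higher, beside 26.1% and 13.3%. The 9 higher genes were eIF4E3, eIF1, eIF2Bdelta, eIF2Bepsilon, eIF6, ThrRS, SerRS, HisRS and AspRS-m, and the deposited count was 4 without RasV12 array 2. Among the 13 lower genes were ArgRS, ValRS, LeuRS and alpha-PheRS of the cytoplasmic enzymes and TyrRS-m, ArgRS-m, MetRS-m and ProRS-m of the mitochondrial ones. The cytoplasmic synthetases split into 6 called lower and 3 higher on the deposited scale, beside 45.1% and 14.1% of all genes above the controls in either line, and the 3 became 0 without RasV12 array 2 or array 3. The L2 array is without a replicate, so limma takes its spread from the other lines, and this comparison shares its arrays with those above.

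Other genes of translation were read from a list of 42 named regulators and cofactors, of which 33 were measured. In RasV12 against CL8, 17 were called lower and 6 higher on the deposited scale, and 11 lower and 17 higher after rescaling. Over all genes the deposited shares were 41.8% lower and 10.9% higher, the rescaled ones 31.5% and 34.9%, and 10.8% were higher on both scales. The higher calls on both scales lay in 2 sets: regulators of the cap and poly(A) tail, with 4 of 7 measured genes higher and 1 lower by their brightest probe sets, and the eIF2alpha kinase pathway, with 2 of 4 higher. The 4 are Lk6, Paip2, NAT1 and larp, and the probe sets of larp disagree. The 1 lower gene, 4E-T, has a second probe set that differed by 1.05, not called, and by 1.54 after rescaling, called higher. pAbp was not called by its brightest probe set on the deposited scale. Its second probe set differed by 0.97 (limma adjusted p = 0.000356), 1.68 after rescaling. No test of these 2 sets of genes was run. Lk6, the kinase that phosphorylates eIF4E, read 11.92, 11.97 and 11.87 in RasV12, 10.99, 10.96, 10.22 and 10.30 in CL8, and 10.42 in L2. RasV12 was above every other array, and Lk6 differed from CL8 by 1.30 (limma adjusted p = 0.000907), 2.11 after rescaling, while its second probe set differed by 3.01. Paip2, an inhibitor of the poly(A)-binding protein, rose by 1.40, and NAT1, a relative of eIF4G, rose by 0.87 (adjusted p = 9.76e-05 and 0.000461). PEK, the eIF2alpha kinase of the endoplasmic reticulum, rose by 0.90 and crc, the fly ATF4, by 0.34 (adjusted p = 0.000144 and 0.00676). Lk6, Paip2, NAT1, 4E-T, pAbp, PEK and crc lie outside the rule for named genes and were named after their values were seen.

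larp, an mRNA-binding regulator of translation, gave opposite answers from its 2 probe sets. The brighter read 12.06, 12.40 and 12.04 in RasV12 and 10.29, 9.51, 10.02 and 9.65 in CL8, a difference of 2.30 (limma adjusted p = 2.49e-05), 3.09 after rescaling. The dimmer read 4.19, 4.84 and 4.56 in RasV12 and 6.18, 6.30, 5.99 and 7.04 in CL8, a difference of -1.85 (adjusted p = 0.000451), -1.53 after rescaling. Neither pair of groups overlapped, so no direction is given for larp as a gene.

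raptor, a subunit of the TOR complex that controls translation, read 3.67, 3.61 and 3.85 in RasV12, 7.40, 6.77, 6.79 and 7.43 in CL8, and 7.10 in L2. RasV12 was just above its controls, and L2 lay within the CL8 range. The RasV12 difference was -3.39 from CL8 (limma adjusted p = 2.85e-06) and -3.39 from L2 (adjusted p = 9.28e-05), and -3.01 and -3.42 after rescaling. mEFTu1, a mitochondrial elongation factor, read 9.10, 9.47 and 9.38 in RasV12, 11.52 to 11.81 in CL8 and 9.63 in L2, and differed from CL8 by -2.32 in RasV12 and -2.01 in L2 (limma adjusted p = 1.59e-06 and 9.07e-05). DENR, a reinitiation factor, fell by 1.79 in RasV12 (adjusted p = 0.000213), and its rescaled difference was -1.03. The synthetase cofactor genes AIMP1, AIMP2 and AIMP3 were called lower in RasV12 on the deposited scale, and AIMP3 was called higher after rescaling.

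**Figure D5:**
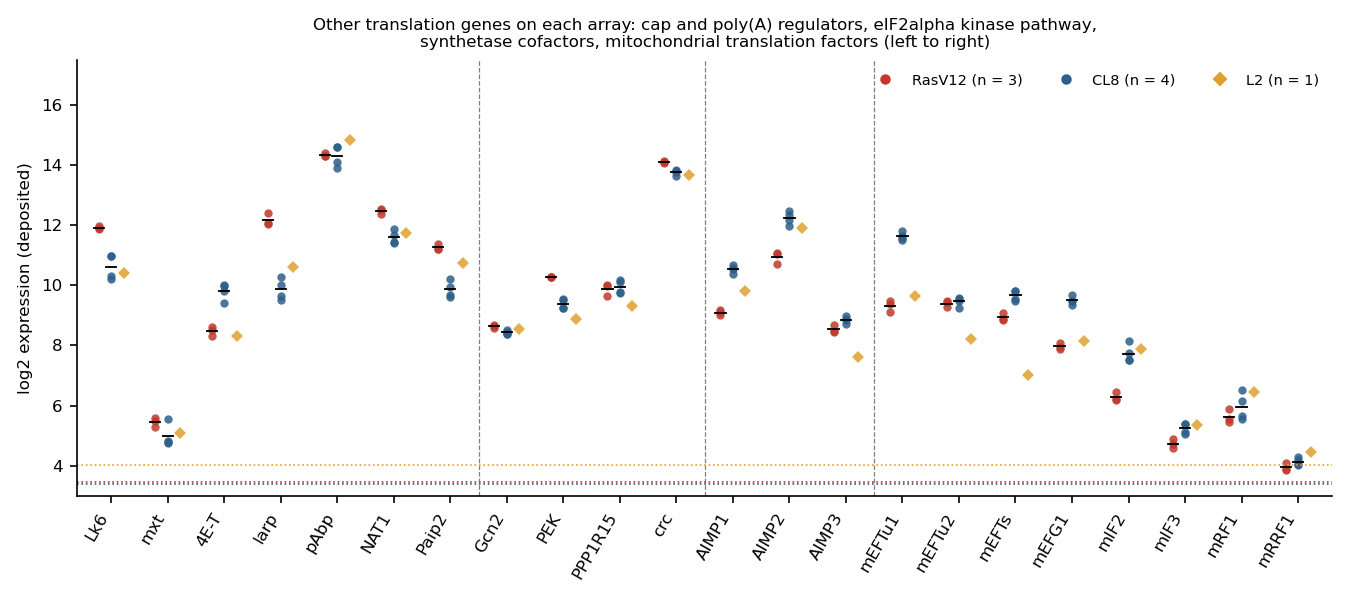
Deposited log2 expression of 22 measured translation genes outside the factors and synthetases on each array, with RasV12 in red, CL8 in blue, L2 as yellow diamonds, line means as black bars and the highest control of each line as dotted lines. Lk6, larp (its brighter probe set), NAT1, Paip2, PEK and crc are higher on the RasV12 arrays than on every CL8 array, while mEFTu1 lies near 9.3 in RasV12 and 11.6 in CL8.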

How the data were processed

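Biotin-labelled total RNA of 8 flasks was hybridised to 1-colour DrosGenome 1 Affymetrix arrays, and the deposited values are the authors' GCRMA expression values, per the series' design text. Their log2 scale is not stated and was read from the deposited values. The labels do not say whether all 8 arrays went through GCRMA together. Of the tested probe sets, 12443 pair with 1 gene in the platform annotation, 327 with several and 1196 with none, and 44 control probe sets were left out of the tests. All 8 arrays entered a joint fit (lmFit, contrasts.fit, eBayes; limma 3.58.1, R 4.3.3), and p-values were adjusted by Benjamini and Hochberg's method across every probe set tested. Rescaling was quantile normalization of the deposited values. A line was above the controls when most of its arrays exceeded the highest non-fly control on the array. The fit was tested on simulated data for RasV12 against CL8 with known changes among 13966 probe sets. Precision is limited by the number of arrays.

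The members and the gene lists were chosen with earlier results of these data known. The genes given in detail were the eIF4E paralogs, eIF4A, eIF4G1 and eIF2beta, up to 4 called genes of each role with the largest RasV12 difference from CL8, up to 2 with the largest L2 difference, up to 2 against their role's direction, genes whose probe sets were called in opposite directions, and up to 4 called genes of the other list. HisRS, eIF5B, eIF3m, eIF2A, AspRS-m and the other genes outside it were named after their values were seen. Alternatives were another scaling, no dim probe sets, the mean over probe sets, a mean-variance trend and arrays left out. Protein, promoter and probe sequences were not used here, so the planned sequence comparison was not run.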

Additional observations from a re-analysis of the deposited data

Results flagged for a closer look

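Dixon's test at 4 arrays was applied to the CL8 arrays of 46 named genes and marked 2 of them, and chance marks about 1 in 20. ThrRS read 12.82 on CL8 array 3, with the nearest array at 12.73, so the gap was 0.978 of the whole range; the RasV12 and L2 values lay below all 4 CL8 arrays. TyrRS-m read 7.43 on CL8 array 1, with the nearest at 7.17 and a gap of 0.897 of the range, beside 4.80 to 4.89 in RasV12.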

How the results depend on the processing

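Scaling moved the counts most. Besides quantile normalization, each array was shifted so that the median of the probe sets above the controls in every line was equal, an alternative chosen after seeing the data. Counts below, and the shares of all genes to set beside them, are given first after quantile normalization and then after the shift. Over all genes, RasV12 against CL8 gave 34.9% and 60.9% higher and 31.5% and 20.8% lower. The shares for L2 against CL8 were 20.1% and 60.7% higher and 18.6% and 14.1% lower. Those for RasV12 against L2 were 22.3% and 13.3% higher and 26.6% and 26.1% lower. For RasV12 against CL8, members called higher were 19 and 22 and lower 26 and 22. Cytoplasmic synthetases gave 4 and 4 higher and 8 and 8 lower, mitochondrial ones 1 and 1 higher and 5 and 3 lower, initiation factors 12 and 15 higher and 11 and 9 lower, and elongation factors 2 and 2 higher. Of the other translation genes, 17 and 20 were higher and 11 and 10 lower. For L2 against CL8, members higher were 10 and 21 and lower 14 and 13. By role, cytoplasmic synthetases gave 1 and 1 higher and 3 and 6 lower, mitochondrial ones 3 and 5 higher and 2 and 0 lower, initiation factors 8 and 7 lower with 4 higher after quantile normalization, elongation factors 1 and 0 lower, and other genes 6 and 12 higher and 8 and 7 lower. For RasV12 against L2, members lower were 13 and 16, with 18 higher after quantile normalization. Cytoplasmic synthetases gave 5 and 6 higher, initiation factors 4 and 5 lower with 11 higher after quantile normalization, and elongation factors 1 higher and 1 lower after quantile normalization. In all 3 scalings, 21 members were lower and 3 higher in RasV12 than in CL8, beside 20.3% and 10.8% of all genes. The shift moved the median RasV12 minus CL8 difference of all probe sets by 0.81 and that of L2 minus CL8 by 0.57. Members above the controls in both RasV12 and CL8 then had a median of -0.04, beside 0.22 for all such genes.

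Deposited RasV12 minus CL8 differences below 0 turned to 0.12 for eEF1gamma, 0.07 for eIF2beta, 0.08 for eIF4A, 0.11 for eIF4E1 and 0.08 for eIF4G1 after the shift. After quantile normalization eIF4G1 was at 0.00. eIF2Bdelta turned to 0.18 and 0.28 and eIF2Bepsilon to 0.35 and 0.35. L2 minus CL8 turned to 0.04 for alpha-PheRS and 0.00 for eIF2Bgamma after quantile normalization, to 0.16 for eEF1delta and 0.04 for eIF2beta after the shift, and to 0.10 and 0.03 for eIF2Bbeta and 0.12 and 0.15 for eIF5. RasV12 minus L2 turned to 0.05 for eIF4E4 after quantile normalization and to -0.25 for larp with the mean over its probe sets. For these reversals the cause was not tested.

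Without dim probe sets, L2 against CL8 gave 7 members higher and 5 initiation factors higher; fewer genes were tested. With the mean-variance trend, other genes higher in L2 than CL8 were 2 and mitochondrial synthetases higher in RasV12 than L2 were 0. Without CL8 arrays 1 and 2, L2 against CL8 gave 1 elongation factor lower, 3 mitochondrial synthetases higher and 2 other genes higher, and RasV12 against L2 gave 5 cytoplasmic synthetases higher, 9 mitochondrial ones lower and 13 other genes lower. Without CL8 arrays 3 and 4, other genes higher in L2 than CL8 were 2 and mitochondrial synthetases higher in RasV12 than L2 were 0. Leaving out single arrays gave, for RasV12 against CL8, 2 to 3 members higher, 52 to 53 lower and 1 to 2 initiation factors higher. For L2 against CL8 the ranges were 0 to 2 elongation factors lower, 0 to 2 mitochondrial synthetases higher and 1 to 2 other genes higher. For RasV12 against L2 they were 4 to 9 members higher, 0 to 3 cytoplasmic synthetases higher, 7 to 17 initiation factors lower and 0 to 1 mitochondrial synthetases higher. When an array or a CL8 pair was left out, 0 of 101 called differences of the 46 named genes changed sign, and 3 differences that were not called did.

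Whether equal sample numbers pair the arrays cannot be decided from so few arrays, and the main fit used no pairing. Deviations from the line means correlated at -0.245, -0.098 and -0.088 for equal numbers and at -0.075 to 0.176 for unequal ones. With the replicate block, RasV12 against CL8 gave 54 members lower and 2 higher, with 1 initiation factor higher.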
